A study of Homo sapiens with 30 samples.

Results

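MV4-11 is a human acute myeloid leukemia (AML) cell line that carries an internal tandem duplication in FLT3. In these cells the transcriptional effect of gaining miR-1 was set beside the effect of losing MPC1, gene by gene. Each effect was taken from its own experiment, and 12 of the 30 libraries of the series entered. The miR-1 experiment held 3 libraries of cells with a lentiviral vector, driven by the EF1a promoter, that expresses GFP and an insert from the MIR1-2 locus (OE), and 3 libraries of cells with the matching vector for GFP alone (EV). The MPC1 experiment held 3 libraries of cells with a CRISPR/Cas9 lentiviral construct with a GFP marker and a single guide RNA against MPC1 (KO), and 3 libraries of its own empty vector control (EV). The labels did not say whether the 3 libraries of a group were separate infections, clones or cultures, so p-values measured only the spread between libraries, which may be technical. The genes compared were those with the same Ensembl identifier in both count tables that held enough counts to be tested in each, which were 13627 of 57175 shared identifiers. The tables listed 60675 and 58051 genes.

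A microRNA such as miR-1 pairs through its seed, near its 5′ end, with matching sites in the 3′ untranslated region (UTR) of messenger RNAs and lowers their stability or translation. It is best known from heart and skeletal muscle. MPC1 and MPC2 together form the mitochondrial pyruvate carrier, which brings the end product of glycolysis into the mitochondrial matrix to feed the TCA cycle and oxidative phosphorylation (OXPHOS). The study asked how pyruvate use and miR-1 are linked in AML. Setting both effects side by side asks which genes changed together and which changed in opposite directions.

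The mature miR-1 sequence is shown first, followed by the seed matches in the 3′ UTRs of the 3 genes that were called in both comparisons and hold one. Capitals mark the seed (bases 2 to 8) in the microRNA and the match in the messenger RNA. The microRNA is from RefSeq on GRCh38.p14, and the same mature sequence comes from MIR1-1 (chr20:62554351-62554372, plus strand) and MIR1-2 (chr18:21829015-21829036, minus strand). The target windows are from the canonical GENCODE transcript on GRCh38, written 5′ to 3′ on the strand of the gene.
miR-1-3p: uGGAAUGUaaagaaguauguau
THSD7A, chr7:11371653-11371682, minus strand: ctccatctcgagtctttgttcACATTCCAc
DIPK1C, chr18:74435147-74435176, minus strand: ttgtgaaagtcacaaactgacACATTCCAa
SLC39A10, chr2:195737236-195737264, plus strand: actacatttcttttggctccaACATTCCt
The windows of THSD7A and DIPK1C held an 8mer (ACATTCCA), and that of SLC39A10 held a 7mer-m8 (ACATTCC with no A after it).

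Total counts were 16117779 to 20219790 per library in the miR-1 experiment and 6230695 to 8493516 in the MPC1 experiment, so levels were read only within an experiment. Mitochondrial genes took 2.72% to 4.34% and 0.14% to 0.452% of counts. Myeloid granule genes were abundant in both, with PRTN3 at 402 to 656 and at 597 to 1142 CPM (counts scaled to a common library size), whereas the monocyte markers CD14 and FCN1 reached at most 4 and 1 counts in a library. Of 25 marker genes of other cell types, 13 had no count in any of the 12 libraries and 19 stayed under 1 CPM in each. Their summed level was 93 to 135 CPM in OE, 93.9 to 139 CPM in EV, 103 to 104 CPM in KO and 102 to 145 CPM in the EV libraries of the MPC1 experiment. Of the 4 that could be tested, KRT18 rose and PECAM1, which myeloid cells also express, fell in KO cells, and none was called in OE cells. Their part in the results was not tested. In the miR-1 experiment 2 libraries stood apart. The mean log2 CPM of 42 interferon-stimulated genes was 5.28 in OE 1 and 3.84 in EV 3, against 2.63 to 2.81 in the other 4, and the stress response genes of ATF4 were also highest in these 2. In the MPC1 experiment the mean log2 CPM of mitochondrially encoded OXPHOS genes was 5.66 in EV 1, near the 5.11 to 5.59 of the KO libraries, and 6.38 and 6.14 in EV 2 and EV 3.

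The targeted genes were examined first. MPC1 had 183, 198 and 187 counts in the KO libraries against 486, 433 and 348 in their EV libraries, and it fell by 1.18 ± 0.10 on the log2 scale (± is the standard error, SE, throughout, edgeR adjusted p = 1.33e-08). It had 531 to 591 counts in all 6 libraries of the miR-1 experiment, where the OE effect was 0.11 ± 0.09. MPC2, the partner subunit, rose in KO cells by 0.31 ± 0.09 (edgeR adjusted p = 0.0475) and had an effect of 0.01 ± 0.07 in OE cells. The KO call of MPC2 was lost without any single KO library, EV 2 or EV 3 (highest edgeR adjusted p = 0.248). MIR1-1 had no count in any of the 12 libraries, and MIR1-2 had none in the 6 of the miR-1 experiment. MIR133A1HG, the transcript that spans MIR1-2, had 44, 50 and 73 counts in the OE libraries and none in the EV libraries, at least 18.6-fold higher (floor of 3 counts per library, edgeR adjusted p = 8.59e-06). It had no count in the KO libraries or in their EV libraries. Mature miR-1 itself was not measured in these libraries.

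Few genes were called for both miR-1 gain and MPC1 loss in MV4-11, and 7 of these 8 went in opposite directions. At a false discovery rate (FDR) of 5%, edgeR called 28 of these genes in OE cells (0.205% of genes tested in both experiments), of which 7 were higher (0.0514%) and 21 lower (0.154%). It called 780 in KO cells (5.72%), of which 458 were higher (3.36%) and 322 lower (2.36%). The genes called in both numbered 8 (0.0587%). NRIP1, TCF4, SLC39A10, LDLRAD4, DIPK1C and C12orf75 were lower in OE and higher in KO cells, and THSD7A was higher in OE and lower in KO cells. Across all 13627 genes the 2 effects had a Pearson r of 0.00585 and a Spearman rho of 0.0116, and across the 9133 genes averaging 8 CPM or more in both experiments these were -0.0793 and 0.0294. These are descriptions across genes, which are not independent replicates, and each set of points shares 6 libraries on an axis. The signs were the same for 50.6% of genes.

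**Figure D1:**
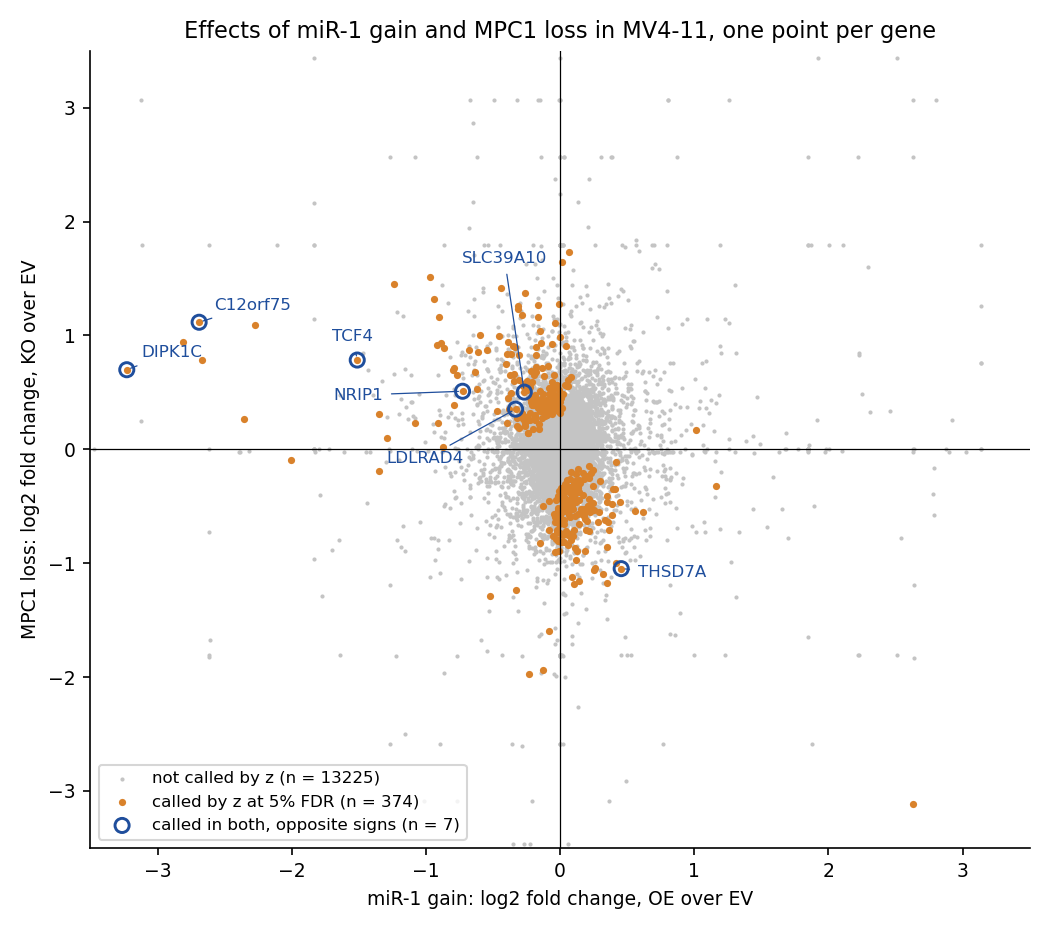
Each point is a gene, with its log2 fold change of OE over EV on the x axis and of KO over EV on the y axis. Orange points were called by the test of the difference and blue circles mark the 7 genes called in both comparisons with opposite signs. They lie in the upper left or lower right, and 28 genes, 6 of them called, lie outside the axes.

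A test of the difference asked where the effects diverged. The z of a gene was its OE effect minus its KO effect over their combined SE, with p-values from a t distribution adjusted over all genes. At 5% FDR 380 genes (2.79%) were called, 195 with the OE effect above the KO effect (1.43%) and 185 below (1.36%). The signs were opposite in 331 of them and the same in 49, while 48.6% of all genes had opposite signs. A z is larger when the signs differ, so this count does not show how often the effects oppose. The KO effect was the larger in size in 333 and the OE effect in 47. Of the 380, 281 were also called in KO cells, 20 in OE cells, and 86 in neither comparison alone. A stricter rule, which adjusts the larger of the 2 p-values of a gene, called no gene as changed together and none as opposing. By that rule the smallest adjusted p was 0.0527, for NRIP1. In simulated counts with known effects, the rule called 12 of 49 genes opposed by 0.5 on the log2 scale, each way. It called 31 of 50 genes opposed by 1. Of genes moved together it called 19 of 49 at 0.5 and 33 of 49 at 1. Genes that it did not call may therefore still have changed in both comparisons. At an unadjusted p under 0.05 in both comparisons, 100 genes (0.734%) had the same sign and 145 (1.06%) opposite signs. Of the former, 73 were higher and 27 lower. Of the latter, 61 were higher in OE and lower in KO cells and 84 the reverse.

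NRIP1 encodes a nuclear receptor corepressor that is known to influence energy metabolism (chr21:14961235-15065936, minus strand). It was at 208, 238 and 264 CPM in OE 1 to 3 and at 375, 452 and 347 CPM in their EV libraries. In the MPC1 experiment it was at 495, 444 and 481 CPM in KO and at 324, 346 and 327 CPM in EV libraries. Every OE library was below, and every KO library above, every EV library of its experiment. Such separation was found for 8.9% of all genes in the miR-1 and 25.1% in the MPC1 experiment. NRIP1 fell by 0.73 ± 0.09 on the log2 scale in OE cells (edgeR adjusted p = 0.00521) and rose by 0.51 ± 0.08 in KO cells (edgeR adjusted p = 0.000305). The 95% interval of the difference was -1.48 to -0.99.

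TCF4 encodes an E-protein transcription factor that directs plasmacytoid dendritic cell and lymphoid development (chr18:55222185-55664787, minus strand). Its levels were 13, 21 and 24.1 CPM in OE and 54.7, 69.1 and 41.9 CPM in EV libraries. They were 354, 335 and 327 CPM in KO and 192, 206 and 191 CPM in EV libraries. No OE or KO library overlapped its EV group. TCF4 fell by 1.51 ± 0.23 in OE cells (edgeR adjusted p = 0.0465) and rose by 0.78 ± 0.09 in KO cells (edgeR adjusted p = 2.11e-06).

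SLC39A10 encodes a zinc importer of the plasma membrane (chr2:195575977-195737702, plus strand). It was at 66.6, 66.4 and 63.5 CPM in OE, 80.5, 74.3 and 81.8 CPM in EV, 89.3, 83.3 and 88.6 CPM in KO and 59.3, 65.2 and 60.0 CPM in the EV libraries of the MPC1 experiment. The groups of each experiment did not overlap, and the changes were a fall of 0.27 ± 0.05 (edgeR adjusted p = 0.0328) and a rise of 0.50 ± 0.08 (edgeR adjusted p = 0.000433). LDLRAD4, an inhibitor of TGF-beta signalling (chr18:13217498-13652755, plus strand), was at 69.4, 66.5 and 71.4 CPM in OE, 81.1, 89.4 and 90.3 CPM in EV, 64.4, 73.9 and 77.1 CPM in KO and 55.7, 57.8 and 55.4 CPM in EV libraries. It too did not overlap in either experiment, and its effects were -0.33 ± 0.06 (edgeR adjusted p = 0.0342) and 0.35 ± 0.10 (edgeR adjusted p = 0.0425).

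The lowest levels among the 7 belonged to DIPK1C and C12orf75. DIPK1C (chr18:74434775-74457944, minus strand) was at 1.49, 1.81 and 1.72 CPM in OE and 17.5, 15.5 and 14.3 CPM in EV libraries, and at 10.5, 13.4 and 9.80 CPM in KO and 7.43, 5.39 and 8.02 CPM in EV libraries. It fell by 3.23 ± 0.20 in OE cells (edgeR adjusted p = 2.86e-07) and rose by 0.70 ± 0.20 in KO cells (edgeR adjusted p = 0.0492). C12orf75 (chr12:105235290-105396097, plus strand) was at 1.19, 1.34 and 1.72 CPM in OE and 9.32, 9.36 and 8.95 CPM in EV libraries, and at 3.70, 3.88 and 3.39 CPM in KO and 2.32, 1.48 and 1.08 CPM in EV libraries. Its effects were -2.69 ± 0.20 (edgeR adjusted p = 2.86e-07) and 1.12 ± 0.28 (edgeR adjusted p = 0.0193). The groups of both genes were separate in both experiments, and the OE effects of these 2 were the largest falls among the 7.

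THSD7A encodes a membrane protein with thrombospondin repeats (chr7:11370365-11832198, minus strand), and it was the gene of the 7 that went the other way. It was at 12.2, 12.4 and 14.6 CPM in OE and 9.38, 9.65 and 9.54 CPM in EV libraries. It was at 26.2, 23.3 and 28.5 CPM in KO and 49.6, 56.9 and 55.0 CPM in EV libraries. All OE libraries lay above, and all KO libraries below, their EV groups. The effects were a rise of 0.46 ± 0.09 (edgeR adjusted p = 0.0365) and a fall of 1.05 ± 0.09 (edgeR adjusted p = 3.19e-08), and its z of 11.76 was the highest among genes averaging 50 or more counts per library in each experiment. Its 3′ UTR holds the 8mer shown above, although its level was higher in OE cells.

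**Figure D2:**
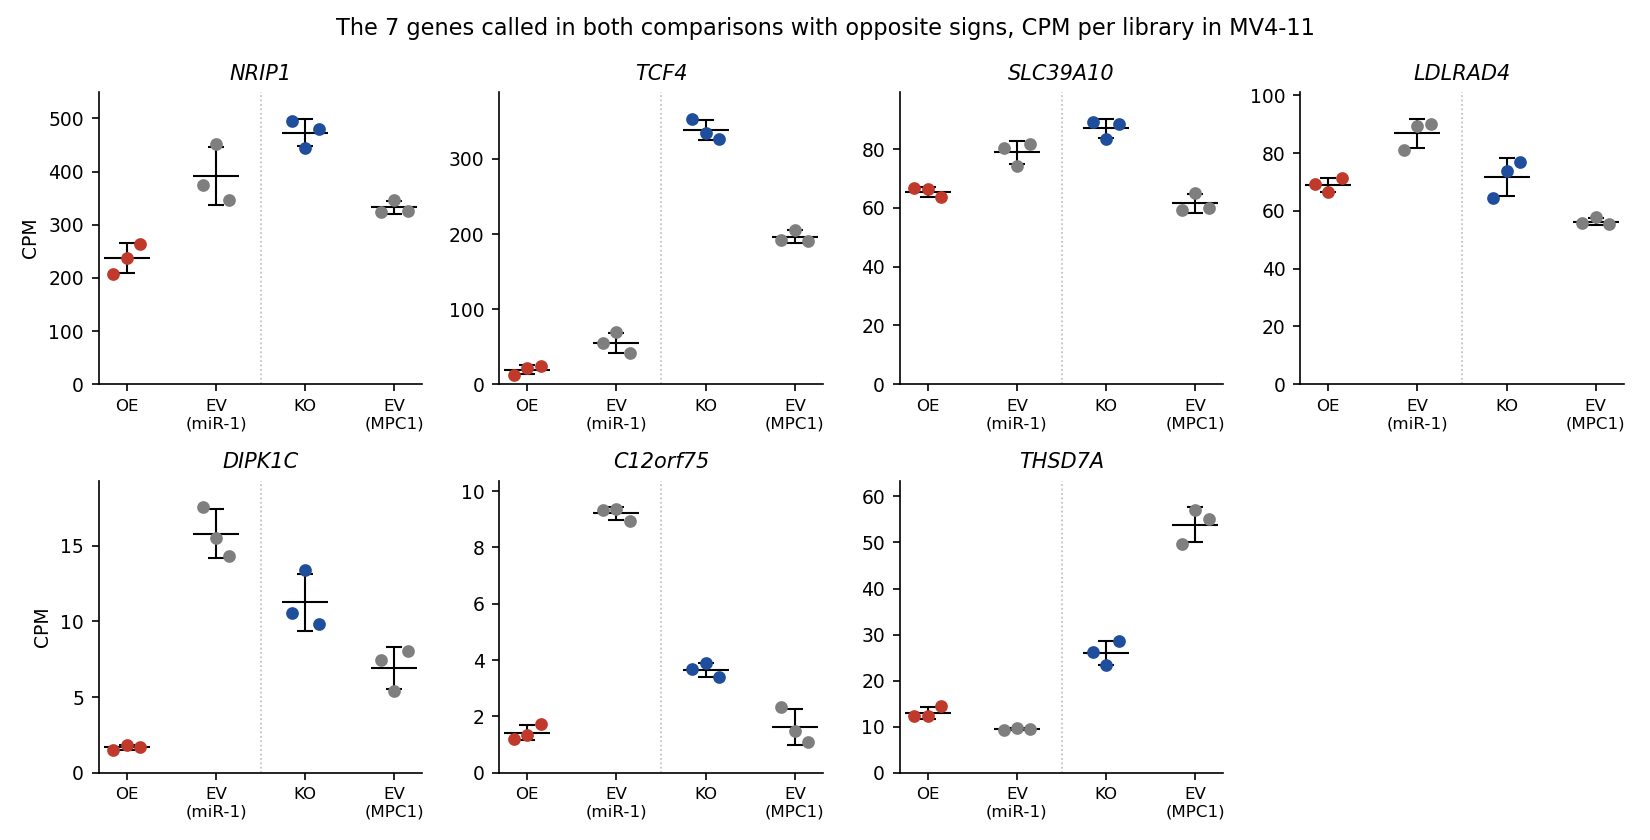
Points are CPM of single libraries, horizontal lines are group means and bars are SD (n = 3), with the miR-1 experiment left and the MPC1 experiment right of the dotted line. In all 7 genes, those called in both comparisons with opposite signs, the OE and KO groups lie on opposite sides of their EV groups.

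All 7 opposing genes held their opposite signs and their call by z in every one of the 21 other settings in which they were tested, with 6 of the 7 tested when a mean of 8 CPM was required. They were picked by their calls in these same libraries, which favours both outcomes, so this is no separate support. The calls in the separate comparisons were less firm. When MV4-11 libraries were fitted without the libraries of the other lines, no gene was called in both comparisons, and 7 genes were called in OE cells. Leaving out single libraries kept from 2 of the 8 (without OE 2) to all 8 (without OE 1), and each of the 8 lost a call in at least one such fit.

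Seed matches were then counted. Of 11722 tested genes with an annotated 3′ UTR, 5.43% hold an 8mer match and a further 7.86% a 7mer-m8, counted on the sense strand. Among the 21 genes that fell in OE cells, 3 held an 8mer and 2 a 7mer-m8. Among the 7 opposing genes, 2 held an 8mer and 1 a 7mer-m8. NRIP1, TCF4, LDLRAD4 and C12orf75 held neither. Genes with an 8mer had a median OE effect of 0.00656 and a median KO effect of 0.00855 (636 genes), against 0.0118 and 0.0176 over all genes. Further genes with matches are given for comparison. MPEG1, a pore-forming protein of macrophages with an 8mer, fell by 1.08 ± 0.08 (edgeR adjusted p = 2.86e-07) and had a KO effect of 0.23 ± 0.12. SLC5A3, the sodium and myo-inositol cotransporter, with a 7mer-m8, fell by 0.27 ± 0.05 (edgeR adjusted p = 0.0225) and had a KO effect of 0.02 ± 0.10. TIMP3, an inhibitor of metalloproteinases with an 8mer, had effects of -0.79 ± 0.19 and 0.72 ± 0.22, of which neither passed in its own comparison, while their difference did (z = -5.13, adjusted p = 0.00203). The OE call of SLC5A3 was lost without OE 2, EV 1 or EV 2 (highest edgeR adjusted p = 0.134). Of 27 tested genes on a list of reported miR-1 targets, SLC5A3 was the one called in OE cells, IGF1 the one called in KO cells and TIMP3 the one called by z. Each was 3.7% of the list, against 0.205%, 5.72% and 2.79% of all genes, in this order.
SLC5A3, chr21:34106138-34106166, plus strand: gaactacatttcttgcaaagtACATTCCt
MPEG1, chr11:59208627-59208656, minus strand: accctggcttccaagaaaaccACATTCCAt
TIMP3, chr22:32860496-32860525, plus strand: gcttgtttgaagaaaatcatgACATTCCAa
These windows, a 7mer-m8 in SLC5A3 and an 8mer in MPEG1 and TIMP3, are from genes whose OE effects were negative. THSD7A, with an 8mer, and VAT1, with a 7mer-m8, had positive OE effects. Other named genes with a match are not shown here. A match describes the letters of a 3′ UTR and is no evidence of binding.

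Next the genes that ranked highest in each of the 4 sign combinations were described, by the larger of their 2 p-values among those averaging 50 or more counts per library. Lower in OE and higher in KO cells, after NRIP1, SLC39A10 and TCF4, came RGL1, a guanine nucleotide exchange factor for Ral GTPases, CCDC50, a ubiquitin-binding adaptor, and HERPUD1, an endoplasmic reticulum stress protein. RGL1 was at 9.38, 7.95 and 8.50 CPM in OE and 14.8, 13.8 and 11.5 CPM in EV libraries, and at 18.9, 22.7 and 21.2 CPM in KO and 12.8, 12.1 and 14.5 CPM in EV libraries. OE and KO libraries again lay on opposite sides of EV. The KO rises of these 3 passed the test (0.68 ± 0.14, 0.50 ± 0.09 and 0.28 ± 0.08), their OE effects did not (-0.64 ± 0.15, -0.37 ± 0.09 and -0.25 ± 0.07), and all 3 were called by z. The KO call of HERPUD1 was lost without any one of the 6 libraries of the MPC1 experiment (highest edgeR adjusted p = 0.127).

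Higher in OE and lower in KO cells, after THSD7A, came VAT1, a vesicle membrane protein, GFOD1, AZU1, a granule protein of neutrophil precursors, MICAL2, a monooxygenase that acts on actin, and MT-RNR2, the large ribosomal RNA of mitochondria. VAT1 was at 113, 111 and 108 CPM in OE and 90.9, 87.8 and 99.2 CPM in EV libraries, and at 63.6, 77.6 and 84.0 CPM in KO and 112, 98.7 and 117 CPM in EV libraries. It narrowly missed the OE threshold (0.26 ± 0.05, edgeR adjusted p = 0.0535) and fell in KO cells (-0.54 ± 0.10, edgeR adjusted p = 0.00354). The libraries of VAT1 did not overlap in either experiment, nor did those of AZU1, at 656, 706 and 703 CPM in OE and 640, 565 and 599 CPM in EV libraries, and at 205, 269 and 244 CPM in KO and 348, 382 and 441 CPM in EV libraries. MT-RNR2 was at 186, 97.7 and 101 CPM in OE and 23.0, 21.8 and 17 CPM in EV libraries. In the MPC1 experiment it was at 41.1, 21.3 and 53.7 CPM in KO and 42.7, 544 and 424 CPM in EV libraries. EV 1 therefore lay among the KO libraries, and neither effect passed its test (edgeR adjusted p = 0.0518 and 0.0588). Both experiments used kits that deplete ribosomal RNA, and the part of that depletion in the MT-RNR2 values was not tested.

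Of the genes higher in both, 5 of the top 6 are named here. They were DENND1B, an exchange factor for Rab GTPases, HLA-E, a molecule read by natural killer cells, DYNLT5, ARMH1 and SDC2. HLA-E was at 231, 217 and 196 CPM in OE and 186, 169 and 200.1 CPM in EV libraries, and at 205, 236 and 198 CPM in KO and 189, 171 and 173 CPM in EV libraries. KO libraries were all above EV, and OE and EV libraries overlapped. HLA-E rose in KO cells by 0.26 ± 0.08 (edgeR adjusted p = 0.0492) and had an OE effect of 0.21 ± 0.06 (edgeR adjusted p = 0.291). That KO call was lost in 4 of the 12 fits that left out single libraries, without KO 1, KO 2, EV 2 or EV 3 (highest edgeR adjusted p = 0.231). Its reads can be shared with near-identical genes. OE 1 and EV 3, the libraries with the most interferon-stimulated RNA, were the highest of their groups, and their part in this value was not tested.

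DENND1B was at 172, 158 and 165 CPM in OE and 124, 152 and 136 CPM in EV libraries, and at 184, 164 and 170 CPM in KO and 121, 138 and 133 CPM in EV libraries. All treated libraries exceeded all EV libraries, and the effects were 0.26 ± 0.07 (edgeR adjusted p = 0.170) and 0.40 ± 0.08 (edgeR adjusted p = 0.00425). The genes lower in both were led by ADGRL3, an adhesion G protein-coupled receptor, ST3GAL4, VPS13A, DLX1, PCNT and TBL1X. ADGRL3 was at 4.6, 5.42 and 5.11 CPM in OE and 5.97, 6.85 and 9.01 CPM in EV libraries, and at 21.8, 20.6 and 20.7 CPM in KO and 50.4, 50.6 and 53.4 CPM in EV libraries. It did not overlap in either, it fell in KO cells by 1.29 ± 0.09 (edgeR adjusted p = 3.3e-10), and its OE effect of -0.52 ± 0.13 did not pass (edgeR adjusted p = 0.151). Its z of 5.0 was called although the signs agreed, as the KO fall was the larger. No gene of these 6 was called in OE cells, and VPS13A was called in KO cells (-0.52 ± 0.12, edgeR adjusted p = 0.0143).

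Beside opposing genes and MPEG1, which was called in OE cells alone, the most extreme z belonged to genes that were called in KO cells and not in OE cells. The glucose-sensing arrestins TXNIP and ARRDC4, known targets of MondoA that restrain glucose uptake, fell in KO cells. ARRDC4 was at 17.2, 16.8 and 17 CPM in KO and 39.5, 40.4 and 33.9 CPM in EV libraries, and at 20.3, 21.9 and 22.9 CPM in OE and 17.8, 23 and 18 CPM in EV libraries. KO and EV libraries were far apart, OE and EV libraries overlapped, and the effects were -1.16 ± 0.10 (edgeR adjusted p = 3.17e-08) and 0.14 ± 0.11. ARRDC3, which holds a 7mer-m8, rose in KO cells by 0.98 ± 0.18 (edgeR adjusted p = 0.00404) with an OE effect of -0.23 ± 0.40. TXNIP fell by 0.59 ± 0.08 (edgeR adjusted p = 7.27e-05) and had an OE effect of 0.18 ± 0.06 (edgeR adjusted p = 0.478). LGR4, a receptor for R-spondins, fell by 0.66 ± 0.07 in KO cells (edgeR adjusted p = 4.07e-06), and SEL1L3 rose by 0.93 ± 0.08 (edgeR adjusted p = 1.33e-08), with OE effects of 0.14 ± 0.06 and -0.06 ± 0.07.

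**Figure D3:**
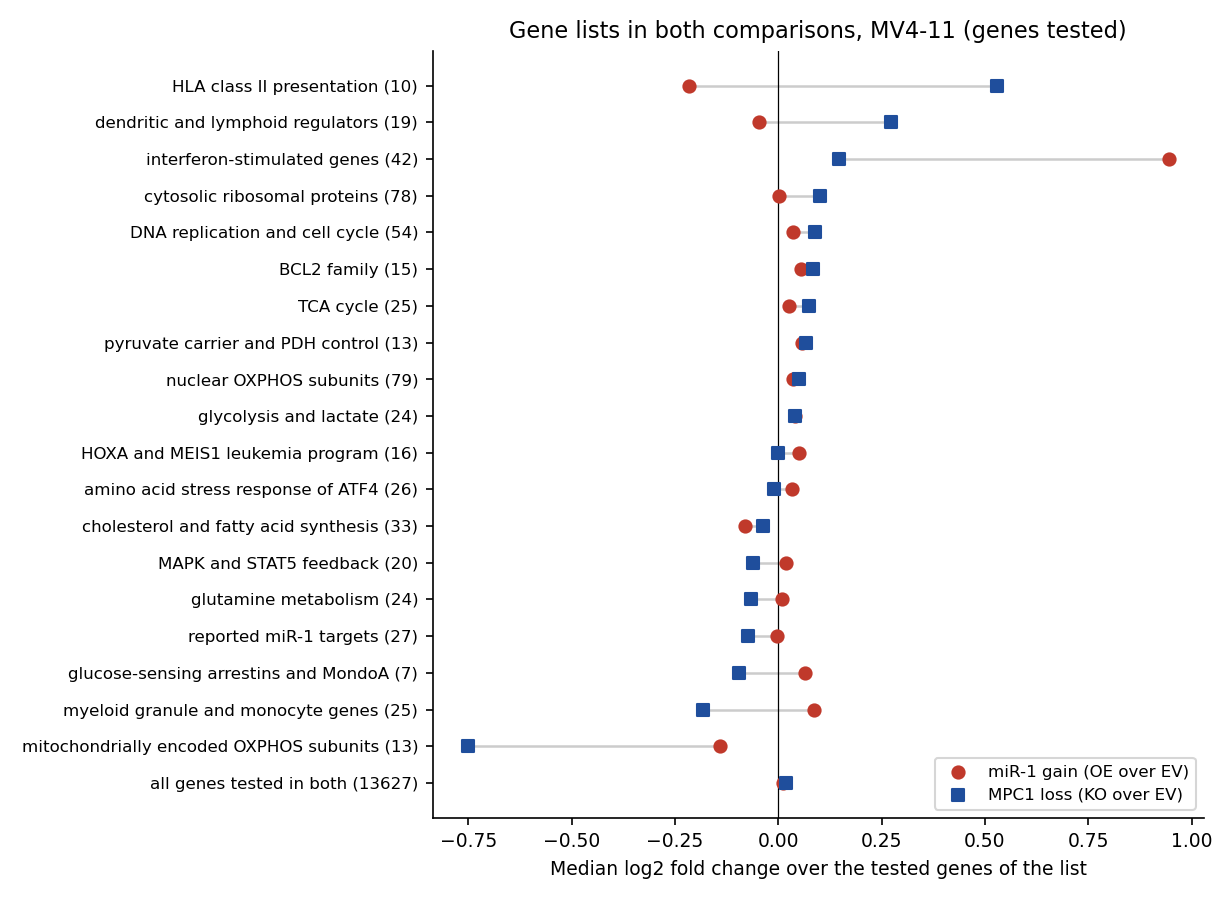
Circles (OE over EV) and squares (KO over EV) give the median log2 fold change of each gene list in MV4-11, with the number of genes tested in parentheses. HLA class II genes lie at -0.216 and 0.528, mitochondrially encoded OXPHOS subunits at -0.142 and -0.751, and all genes at 0.0118 and 0.0176.

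The lists of energy metabolism covered pyruvate handling, glycolysis, the TCA cycle, glutamine metabolism, and nuclear and mitochondrially encoded OXPHOS subunits. No member was called in OE cells, where 0.205% of all genes were. In KO cells 2 of 13, 3 of 24, 3 of 25, 4 of 24, 2 of 79 and 3 of 13 members were called in this order, which was 2.53% of the nuclear OXPHOS subunits and 23.1% of the mitochondrially encoded ones, against 5.72% of all genes. The 2 called genes of pyruvate handling were MPC1, the targeted gene itself, and MPC2. All 13 mitochondrially encoded subunits had negative KO effects with a median of -0.751, and MT-ND3, MT-CO2 and MT-CO3 passed the test. Each of these 3 calls was lost without KO 1, KO 2, EV 2 or EV 3 of the MPC1 experiment. In OE cells 12 of the 13 were negative with a median of -0.142, which was -0.442 without OE 2 and 0.0709 without OE 1. MT-ND3, a subunit of complex I, was at 19.6, 16.2 and 17.3 CPM in KO and 21.2, 73.9 and 69.5 CPM in EV libraries, so that EV 1 lay just above the KO group. The nuclear subunits, of which 79 were tested, had medians of 0.0347 and 0.0512, and 56 had a positive OE effect (70.9%, against 55.1% of all genes). The OE median was -0.0261 without OE 2 and 0.108 without OE 1, and the KO median was -0.0249 without EV 2 and 0.163 without EV 1, so neither held its sign. In KO cells ATP5F1D fell (-0.44 ± 0.12, edgeR adjusted p = 0.0341) and NDUFC2 rose (0.40 ± 0.11, edgeR adjusted p = 0.0422). Leaving out single libraries ended these calls in 3 and 4 fits (highest edgeR adjusted p = 0.244 and 0.294).

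Of 24 glycolysis genes, LDHA and GPI fell in KO cells by 0.36 ± 0.09 and 0.32 ± 0.09 (edgeR adjusted p = 0.0193 and 0.0282), and the glucose transporter SLC2A1 rose by 0.32 ± 0.10 (edgeR adjusted p = 0.0491). Their OE effects were 0.04 ± 0.05, 0.04 ± 0.05 and -0.02 ± 0.06, and LDHA and GPI were called by z. Leaving out single libraries ended the KO calls of LDHA, GPI and SLC2A1 in 3, 5 and 5 fits (highest edgeR adjusted p = 0.17, 0.195 and 0.164). It ended the calls of LDHA and GPI by z in 3 and 6 fits (highest adjusted p = 0.173 and 0.196). LDHA, which turns pyruvate into lactate, was at 433, 373 and 409 CPM in KO and 427, 562 and 566 CPM in EV libraries, so EV 1 overlapped the KO group. Of 25 TCA cycle genes, DLST, a part of the 2-oxoglutarate dehydrogenase complex, fell in KO cells (-0.32 ± 0.08, edgeR adjusted p = 0.0246) with an OE effect of 0.10 ± 0.06. Its difference was called (z = 4.10, adjusted p = 0.0151). Its KO call was lost in 4 fits that left out single libraries (highest edgeR adjusted p = 0.165), and its call by z in 2. ME1 and ME3 were the other members called in KO cells, and neither was called by z. The KO effect of ME1 ran from -5.19 to -4.55 over such fits, and its call was kept in each (highest edgeR adjusted p = 0.0469). ME3 rose by 0.53 to 0.65, and its KO call was lost in 2 fits (highest edgeR adjusted p = 0.0911).

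Of 24 glutamine genes, 1 rose and 3 fell in KO cells (16.7% called, against 5.72% of all genes). SLC38A1, a glutamine importer, was at 114, 102 and 110 CPM in KO and 66.9, 74.7 and 74.6 CPM in EV libraries, and at 64.2, 55.8 and 44.8 CPM in OE and 60.9, 58.0 and 71.9 CPM in EV libraries. KO libraries were all above EV, and OE libraries overlapped EV. It rose in KO cells by 0.59 ± 0.08 (edgeR adjusted p = 5.62e-05), had an OE effect of -0.21 ± 0.11 (edgeR adjusted p = 0.917), and was called by z (-5.96, adjusted p = 0.00124). GOT2, the mitochondrial aspartate aminotransferase, and CTPS1, which makes CTP with glutamine as nitrogen donor, fell in KO cells by 0.34 ± 0.09 and 0.35 ± 0.08 (edgeR adjusted p = 0.0313 and 0.0112). Both were called by z on the opposite side. Leaving out single libraries ended their KO calls in 4 and 3 fits (highest edgeR adjusted p = 0.201 and 0.0798). It ended their calls by z in 4 and 7 fits (highest adjusted p = 0.1 and 0.115). PSAT1, of serine synthesis, fell in KO cells by 0.61 ± 0.11 (edgeR adjusted p = 0.00187), but its OE libraries ran from 36.8 to 93.4 CPM and their EV libraries from 43.7 to 100.3 CPM, the highest being OE 1 and EV 3.

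Lists of cell identity genes held members with opposite signs. HLA class II molecules present peptides from outside the cell to helper T cells, and of the 10 tested genes of this list 9 had a negative OE effect (median -0.216) and all 10 a positive KO effect (median 0.528). In all genes 55.1% of OE effects and 52.7% of KO effects were positive. Only 2 members passed a test, HLA-DRA and HLA-DRB1, in KO cells and by z (20% of the list, against 5.72% and 2.79% of all genes), and none passed in OE cells. HLA-DRA was at 49.0, 56.0 and 52.2 CPM in OE and 63.8, 72.4 and 57.7 CPM in EV libraries, and at 44.2, 50 and 39.2 CPM in KO and 23.4, 25.7 and 26.2 CPM in EV libraries. The groups were separate in both experiments. Its KO rise was 0.83 ± 0.14 (edgeR adjusted p = 0.000726), its OE effect was -0.30 ± 0.10 (edgeR adjusted p = 0.384) and the difference was called (z = -6.76, adjusted p = 2.11e-05). HLA-DRB1 rose by 0.65 ± 0.13 in KO cells (edgeR adjusted p = 0.00378) with an OE effect of -0.20 ± 0.10, though reads can be shared with the near-identical HLA-DRB5. CD74, the invariant chain, had effects of -0.21 and 0.14, and CIITA, the master regulator of class II transcription, of -0.21 and 0.49, and neither passed.

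Of 19 regulators of dendritic and lymphoid cells, 15 had a negative OE effect and 13 a positive KO effect, with medians of -0.0458 and 0.273. TCF4 and RUNX2 fell in OE cells, and TCF4, IRF4, ID2, SOX4 and IRF8 rose and GATA2 fell in KO cells (31.6% called, against 5.72% of all genes). IRF4, a factor of dendritic and B lineage cells, was at 82.2, 80.4 and 81.8 CPM in KO and 34.2, 32.4 and 34.4 CPM in EV libraries, and at 128, 156 and 174 CPM in OE and 151, 175 and 134 CPM in EV libraries. KO libraries were all above EV, while OE and EV libraries overlapped. It rose by 1.27 ± 0.11 in KO cells (edgeR adjusted p = 1.47e-08) and its OE effect was -0.01 ± 0.15. SOX4, a progenitor transcription factor, had an OE effect of -0.32 ± 0.10 (edgeR adjusted p = 0.473) and rose in KO cells by 0.27 ± 0.08 (edgeR adjusted p = 0.0327). ID2, an inhibitor of E-proteins such as TCF4, rose in KO cells by 0.56 ± 0.11 (edgeR adjusted p = 0.00334) together with TCF4, with an OE effect of -0.04 ± 0.07.

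Myeloid granule and monocyte genes leaned the other way, with 18 of 25 positive in OE cells (median 0.0871) and 17 of 25 negative in KO cells (median -0.182). In KO cells 5 fell (AZU1, ELANE, PRTN3, CST7 and SPI1) and 1, the chemokine receptor CCR1, rose (24% called, against 5.72% of all genes), and none was called in OE cells, where 0.205% of all genes were. The test of the difference called AZU1, ELANE, PRTN3, MPO and CTSG above and CCR1 below, and the call of PRTN3 by z was lost in 6 fits that left out single libraries (highest adjusted p = 0.0843). These first 5 encode proteins of the primary granules of neutrophil precursors. ELANE, neutrophil elastase, was at 82.6, 102 and 91.1 CPM in KO and 155, 195 and 228 CPM in EV libraries, and at 65.6, 79.4 and 87.2 CPM in OE and 74.9, 65.3 and 55.3 CPM in EV libraries. KO libraries were all below EV, and OE libraries overlapped EV. It fell by 1.06 ± 0.19 in KO cells (edgeR adjusted p = 0.00849) with an OE effect of 0.25 ± 0.11 (edgeR adjusted p = 0.828), and without KO 1 its KO call was lost (edgeR adjusted p = 0.0557). AZU1 fell by 0.70 ± 0.11 in KO cells (edgeR adjusted p = 0.000435) with an OE effect of 0.20 ± 0.05 (edgeR adjusted p = 0.139), and MPO had effects of 0.35 ± 0.11 and -0.46 ± 0.15, of which neither passed. The medians of these 3 identity lists kept their sign in both comparisons in all 22 settings, main setting included, but their sizes rested on single libraries. The myeloid KO median was -0.0459 without EV 1, -0.281 without KO 2, -0.11 without KO 3 and -0.332 without EV 2, and the myeloid OE median was 0.0367 without EV 2 and 0.0475 without OE 1. The OE median of the dendritic and lymphoid list was -0.104 without OE 3 and -0.075 without OE 1, and that of HLA class II was -0.339 without OE 2. By mean log2 CPM, the HLA class II groups were separate in both experiments, and the dendritic and lymphoid groups only in the miR-1 experiment. Dendritic and lymphoid KO 1 (4.641) lay below EV 2 (4.659). The myeloid groups overlapped in both, with OE 3 (5.27) below EV 3 (5.335) and KO 2 (5.61) level with EV 2 (5.608).

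**Figure D4:**
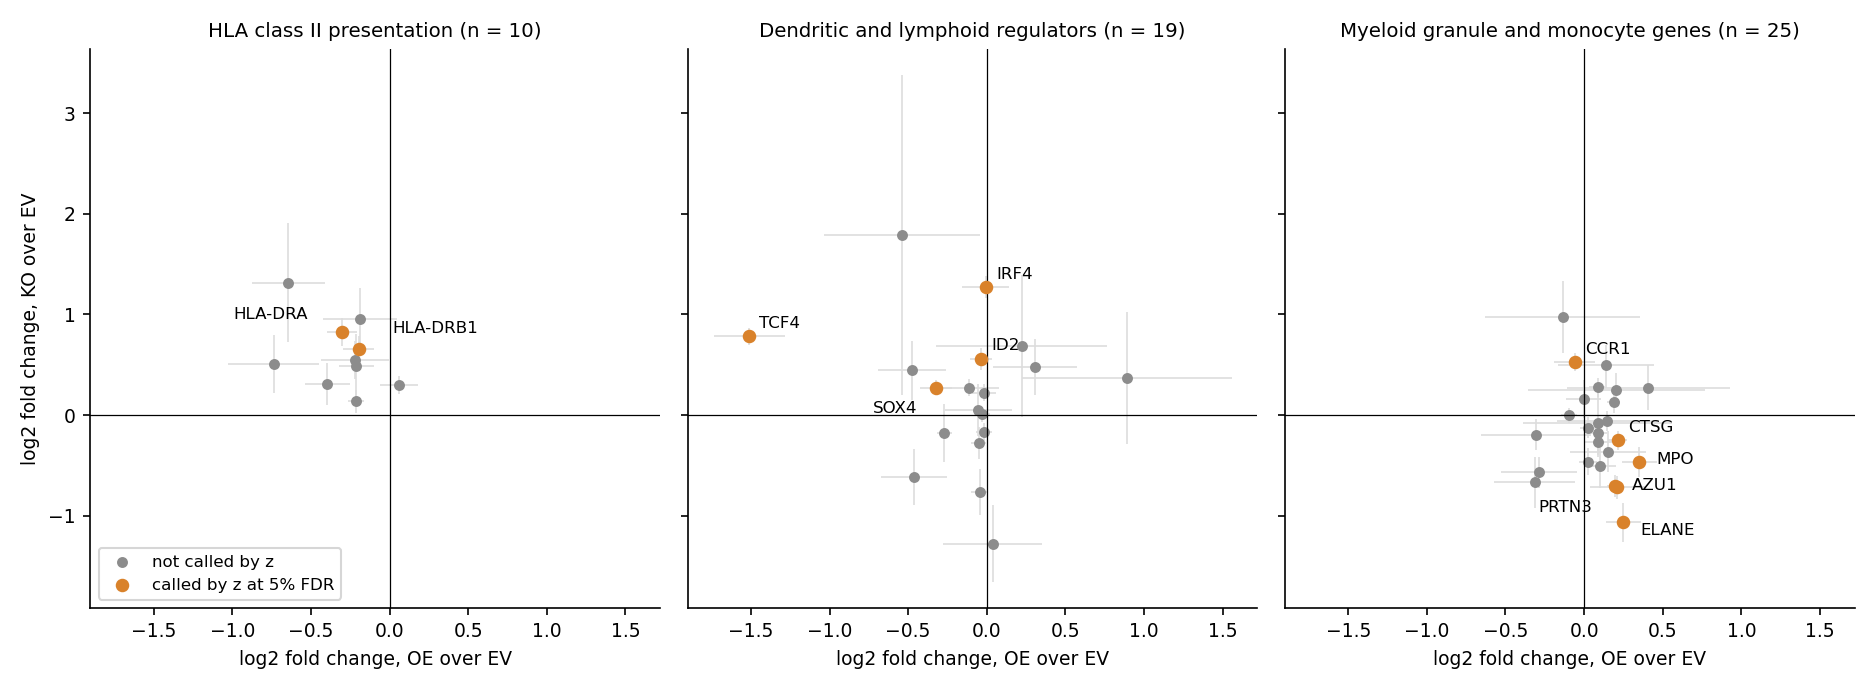
Points are tested genes of 3 lists with their log2 fold change in OE cells (x axis) and in KO cells (y axis), and bars are 1 SE. Orange points were called by the test of the difference. Most HLA class II points lie in the upper left, and AZU1, ELANE, PRTN3, MPO and CTSG lie in the lower right.

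Interferon-stimulated genes had a median OE effect of 0.945 and a median KO effect of 0.146 (42 genes), but none was called in OE cells, and the median OE effect was -0.274 without OE 1. In KO cells 5 of them rose and 1 fell (14.3% called, against 5.72% of all genes). No gene of the BCL2 family or of the MAPK and STAT5 feedback list was called in OE cells. Of 15 BCL2 family genes, BMF, BIK and PMAIP1 rose and BAX fell in KO cells (26.7% called, against 5.72% of all genes). Of 20 MAPK and STAT5 feedback genes, DUSP4 and DUSP6 rose and CISH fell in KO cells (15% called). Leaving out single libraries ended the KO calls of BIK, BAX and DUSP6 in 4 fits each, of CISH in 5 and of PMAIP1 in 2. DUSP4, a phosphatase that acts on MAP kinases, had an OE effect of -0.94 ± 0.27 (edgeR adjusted p = 0.367), rose in KO cells by 1.32 ± 0.33 (edgeR adjusted p = 0.0185) and was called by z (-5.34, adjusted p = 0.0014). BMF, a BH3-only protein that antagonises BCL2, had an OE effect of -0.15 ± 0.07 and rose in KO cells by 0.34 ± 0.10 (edgeR adjusted p = 0.0379). It was the one of 15 BCL2 family genes called by z (6.67%, against 2.79% of all genes). The KO calls of DUSP4, BMF and VPS13A were lost without KO 1, KO 2, EV 2 or EV 3, and that of SOX4 also without KO 3. The call of BMF by z was lost in 2 fits that left out single libraries (highest adjusted p = 0.0702). No member of the HOXA and MEIS1 list (16 genes tested), a program of leukemias with a KMT2A fusion such as MV4-11, was called in any of the 3 tests. No member of the lists of cholesterol and fatty acid synthesis, ATF4 targets, or DNA replication and cell cycle was called in OE cells or by z, and 6 of 33, 3 of 26 and 4 of 54 were called in KO cells (18.2%, 11.5% and 7.41%, against 5.72% of all genes). The OE medians of the first 2 of these lists took both signs, from -0.299 (without OE 1) to 0.163 (without EV 3) and from -0.297 (without OE 1) to 0.345 (without EV 3). Of 78 cytosolic ribosomal protein genes none was called in OE cells and 3 fell in KO cells (3.85%), and their medians were 0.00162 and 0.102.

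Molm-14, another AML line with a FLT3 internal tandem duplication, was examined with the same vectors and guide. The MIR133A1HG transcript had 60, 44 and 34 counts in its OE libraries and none in its EV libraries. Among the 13627 genes tested in both experiments, none was called for the OE effect in Molm-14, against 28 in MV4-11. At an unadjusted p under 0.05, 601 of the 13627 genes passed in Molm-14 OE cells and 838 in MV4-11 OE cells. In Molm-14 KO cells 338 genes were called. At an unadjusted p under 0.05 in both comparisons, 58 genes had the same sign and 34 opposite signs in Molm-14, against 100 and 145 in MV4-11. The test of whether the difference of the 2 effects itself differed between lines called 90 genes. Among them were NRIP1, TCF4, SLC39A10, LDLRAD4, C12orf75 and THSD7A, which had been picked by their calls in MV4-11, and such a choice favours a difference between lines. For NRIP1 the Molm-14 effects were 0.02 (OE) and -0.05 (KO), for THSD7A 0.02 and 0.08, and for TCF4 -0.23 and -0.15, and none of these passed. C12orf75 rose in KO cells of both lines (1.52 in Molm-14, edgeR adjusted p = 1.24e-06), but its OE effect in Molm-14 was 0.04. MPEG1 rose in Molm-14 KO cells by 1.42 (edgeR adjusted p = 5.1e-06), with an OE effect of 0.19, whereas it fell in MV4-11 OE cells.

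**Figure D5:**
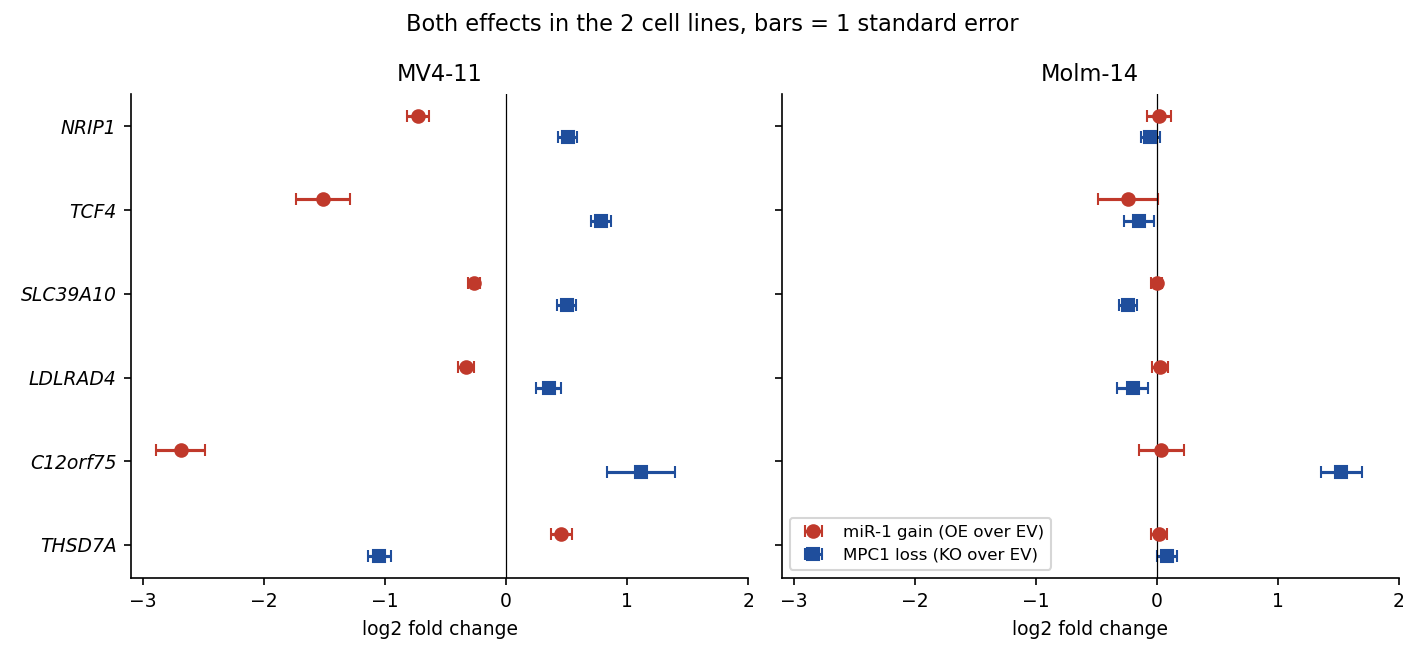
Circles (OE over EV) and squares (KO over EV) show log2 fold changes with bars of 1 SE for genes called in both comparisons with opposite signs in MV4-11, in MV4-11 and in Molm-14. DIPK1C is left out because its OE effect could not be estimated in Molm-14. The OE effects of all 6 lie between -0.23 and 0.04 in Molm-14.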

How the data were processed

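Gene counts were deposited in 1 table for each experiment. Per the labels, libraries came from total RNA depleted of ribosomal RNA with a stranded kit. The authors trimmed reads with cutadapt 1.16, aligned them to GRCh38 with STAR 2.7.6a and counted them with featureCounts 1.6.3, and the deposited counts were whole numbers without normalization. The tables were counted on different annotation releases. The strand setting of the counting is not given in the sources used here, so overlapping antisense genes cannot be told apart. After filterByExpr and TMM scaling, each table was tested by robust quasi-likelihood in edgeR 4.0.16 (R 4.3.3), all its libraries sharing 1 model. SEs were derived from the F statistic. P-values were adjusted by Benjamini-Hochberg over the 17542 genes tested in the miR-1 table and the 14490 in the MPC1 table, and those of z and of the larger p over the 13627 tested in both. Calls used 5% FDR. CPM used TMM-scaled library sizes. Symbols and positions came from GENCODE release 44. Gene lists and members were chosen with earlier results of these data known. Named genes were the manipulated genes, the 6 top genes of each sign combination, those called in both, the 5 highest and 5 lowest z, and per list up to 4 called members or the 2 of largest z. In simulated counts of 13470 genes z called 65.3% of genes opposed by 0.5 and 92% of those opposed by 1 on the log2 scale, each way, and 6 of 13273 unchanged genes. The simulation drew each gene independently. It held no shifts shared by many genes of a library, such as those described for OE 1, EV 3 and the EV 1 of the MPC1 experiment. These rates therefore do not cover such shifts. Replicate pairs differed by more than sampling noise in chi-square tests. Floors cover counting error only, whereas SEs and the interval of a difference include the spread between libraries. Alternatives were DESeq2 1.42.0, limma 3.58.1 and others. One gene that the rule names is not reported here.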

Additional observations from a re-analysis of the deposited data

Results flagged for a closer look

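The difference between the OE and KO effects was compared between MV4-11 and Molm-14 for the named genes, as a test of the double difference over 13627 genes. At 5% FDR 16 of 90 named genes passed, and 90 of all 13627 genes did. Many named genes were picked by their effects or z in MV4-11, which favours a difference between lines. Their count is therefore no measure of line specificity. Negative values mean that the OE effect lay further below the KO effect in MV4-11 than in Molm-14. The z of the double difference was -7.81 for SLC39A10 (adjusted p = 6.31e-06), -7.54 for NRIP1, -6.03 for TCF4, -5.28 for C12orf75, -4.89 for LDLRAD4, -4.68 for CCDC50, -4.10 for KRT18, -4.08 for IFITM1 and -4.03 for RGL1. It was 9.41 for THSD7A (adjusted p = 4.14e-08), 4.90 for CTPS1, 4.54 for LGR4, 4.46 for GFOD1, 4.42 for RPS21, 4.33 for VAT1 and 4.15 for TXNIP. In 9 of the 16 the z had opposite signs in the lines. SLC39A10, for example, was at -8.16 in MV4-11 and 2.7 in Molm-14. KRT18 is a keratin marker of epithelial cells, at 12.7 to 15.8 CPM in the miR-1 experiment and 1.75 to 4.64 CPM in the MPC1 experiment of MV4-11, and its part in any result was not tested. DIPK1C could not be compared because its OE effect could not be estimated in Molm-14.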

How the results depend on the processing

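Of 132 calls on named genes (10 OE, 78 KO and 44 z), none reversed in any alternative, but many were lost. The calls were picked at 5% FDR in these same libraries, which makes a reversal unlikely, so its absence is no separate support. Leaving out single libraries ended 7 OE, 51 KO and 12 z calls in at least one fit, and without EV 3 or without KO 1 of the MPC1 experiment 49 of the 78 KO calls were lost. MV4-11 libraries alone lost 56 of 131 calls. Medians of gene lists took both signs over the settings in 16 of 23 lists for the OE effect and 9 of 23 for the KO effect. Without a filter on low counts, OE cells had 120 called genes, z called 603, the larger-p rule called 1 together and 7 opposing, and 5 genes of the same and 18 of opposite direction were called in both. With at least 8 CPM the larger-p rule called 1 opposing gene and Pearson r was -0.0787. DESeq2 called 66 genes in OE cells, 3 opposing by the larger p, and 3 (same) and 11 (opposite) in both, and limma-voom called 2 opposing. Size factors of DESeq2 left 0 genes of the same direction called in both, and a normal reference for z gave 654 calls. MV4-11 libraries alone gave 7 OE calls, 351 KO calls, 160 z calls, 0 and 0 called in both, 35 and 90 with both p under 0.05 and r of -0.0501. Without OE 1 and EV 3 together, OE cells had 72 calls, z 583, the larger-p rule 4 opposing genes, 2 and 19 were called in both and 166 had the same sign at p under 0.05.

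Leaving out single libraries gave 11 (without OE 2) to 44 OE calls (without OE 1), 132 (without EV 3) to 1393 KO calls (without EV 1), 148 to 732 z calls, 0 to 1 opposing by the larger p, 0 to 1 of the same and 2 to 11 of opposite direction called in both, and 64 to 150 and 113 to 249 genes with both p under 0.05. Without EV 1 of the MPC1 experiment, the library that resembled the KO libraries in mitochondrial RNA, KO calls rose to 1393. A replicate block gave 14 OE calls, 1468 KO calls, 0 and 2 called in both and 54 of the same sign at p under 0.05. The labels did not say whether the replicate numbers pair the libraries. Deviations of same-numbered libraries correlated at -0.422, 0.0487 and -0.722 in the miR-1 experiment and 0.0147, -0.628 and 0.286 in the MPC1 experiment. These values show no steady pairing by number, but they are too few to exclude one. The cause of these shifts was not tested. With 3 libraries per group, smaller effects than those called may be missed.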
